A study of Homo sapiens with 4 samples.

Results

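The genes described here are 8 human genes whose proteins work with the androgen receptor on chromatin: the transcription factors FOXA1, GATA2 and GRHL2, the coactivators NCOA1, NCOA2, NCOA3 and EP300, and the corepressor NCOR1. They were taken by symbol, with each Ensembl identifier matched without its version to GENCODE 29, and all 8 were found among the 60483 gene identifiers of the count tables. The gene of the receptor itself was not among those named and is not analysed here. The data were reads counted per gene in 4 RNA-seq libraries of C4-2, an established human prostate cancer line. In the C4-2-ENZ group (2 libraries) the cells had been cultured with enzalutamide, a drug that blocks the androgen receptor, for 1 month and are labelled resistant to it. In the C4-2-CON group (2 libraries) the cells are labelled control and were cultured without the drug, also for 1 month. All 4 libraries carry the same passage range and were kept in RPMI medium with serum. The growth notes also name FGF-2, without saying which cells received it, and they do not say whether control cells received vehicle. Drug exposure and resistance go together in the labels, so they cannot be told apart, and fewer cells of a type cannot be told apart from less RNA per cell.

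The androgen receptor is a hormone-activated transcription factor that drives luminal differentiation and growth in the prostate. Pioneer factors such as FOXA1 and GATA2 bind closed chromatin and open enhancers for it, and GRHL2 is a grainyhead factor that maintains epithelial gene expression. Once on DNA, the receptor recruits p160 coactivators (NCOA1, NCOA2 and NCOA3, also called SRC-1, SRC-2 and SRC-3), which in turn bring the histone acetyltransferase EP300. NCOR1 instead holds a histone deacetylase complex on nuclear receptors and lowers transcription of their targets.

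Promoter sequence is shown for NCOA3 and NCOA1, since the results turn on how far members of one family moved apart, and for the pioneer factor GATA2. RefSeq (GRCh38.p14) starts were used for 6 of the 8 genes, 10 in all, without GRHL2 and NCOA2, and the 250 bases before a start were free of GENCODE 29 exons for 6 of these starts. NCOA1 and GATA2 each have a second clear window, not printed, with 46 CpGs and 87.2% GC for NCOA1 and 18 CpGs and 71.2% GC for GATA2. The clear window of NCOR1, also not printed, lies before a start at 16194639, inside the span of the gene. It had 0 CpGs and 23.6% GC. The other NCOR1 window, before a start at 16215534 nearer the 5′ end of the gene, overlaps an NCOR1 exon and had 28 CpGs and 72.4% GC. The windows of NCOA3, NCOA1 and GATA2 that lie nearest the 5′ end of the gene in GENCODE 29 are printed 5′ to 3′ on the coding strand, with CpG dinucleotides in capitals.
NCOA3 (chr20:47501637-47501886, plus strand): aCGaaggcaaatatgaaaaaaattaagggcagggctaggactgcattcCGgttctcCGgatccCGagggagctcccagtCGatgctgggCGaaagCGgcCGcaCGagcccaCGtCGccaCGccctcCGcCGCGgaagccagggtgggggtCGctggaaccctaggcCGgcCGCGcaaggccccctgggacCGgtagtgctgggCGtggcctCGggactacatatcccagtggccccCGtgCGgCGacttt
NCOA1 (chr2:24491627-24491876, plus strand): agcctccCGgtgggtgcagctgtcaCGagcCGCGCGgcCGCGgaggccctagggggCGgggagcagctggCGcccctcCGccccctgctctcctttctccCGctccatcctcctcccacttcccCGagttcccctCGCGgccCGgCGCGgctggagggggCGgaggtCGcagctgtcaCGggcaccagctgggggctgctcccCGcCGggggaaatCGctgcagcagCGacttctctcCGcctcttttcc
GATA2 (chr3:128493202-128493451, minus strand): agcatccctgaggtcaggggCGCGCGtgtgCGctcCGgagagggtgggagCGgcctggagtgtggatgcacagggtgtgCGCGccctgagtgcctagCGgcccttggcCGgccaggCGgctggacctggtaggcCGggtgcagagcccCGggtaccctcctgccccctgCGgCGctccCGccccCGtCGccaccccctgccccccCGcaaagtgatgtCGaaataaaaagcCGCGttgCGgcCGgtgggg
The printed windows held 25 CpGs (NCOA3), 25 (NCOA1) and 24 (GATA2), and their GC content was 66.4%, 74.0% and 72.8%. Over all 35116 RefSeq windows of this length the medians were 11 CpGs and 58.0% GC. The windows were searched on both strands for the letters of known motifs, and no 2 matches found in them overlapped. The forkhead letters were TGTTTAC, with TGTTTGC as the other accepted form, and 6.09% of all windows held a match. For GATA factors the letters AGATAA were searched, and also the variant that begins with T (TGATAA), with a match in 14.56% of all windows. Grainyhead letters, AACCGGTT, were in 0.12% of all windows, and the steroid receptor half-site AGAACA in 12.39%. Among the 10 windows of these genes there were 3 matches, all in windows that overlap a GENCODE 29 exon. The 6 windows clear of exons, with the printed ones among them, held none. The matches are shown here with up to 8 flanking bases on each side and the match in capitals.
FOXA1, forkhead, 235 to 229 bases before the start at 37595249 on chromosome 14: actgctttGCAAACAaagtgagg
NCOA1, forkhead, 197 to 191 bases before the start at 24584477 on chromosome 2: tttgttttTGTTTGCttcaagag
NCOA1, GATA, 240 to 235 bases before the same start: aatgttaaTTATCTatattcca
A match describes letters in a window and says nothing of binding.

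Gene counts totalled 45033885 and 39047453 in C4-2-ENZ replicates 1 and 2, and 25589724 and 29866008 in C4-2-CON replicates 1 and 2. The rows of the tables that hold no gene took 55.41% and 56.87% of records in C4-2-ENZ libraries and 74.4% and 71.08% in C4-2-CON libraries, so library makeup moved with the groups, and its part in the results was not tested. Of 20325 genes tested, 64.7% were called (edgeR quasi-likelihood test, Benjamini-Hochberg adjusted p below 0.05), 33.0% higher and 31.7% lower in C4-2-ENZ. Among the calls 51.0% were higher with TMM scaling and 64.4% with total count scaling, which placed the median log2 fold change of all genes at 0.172 instead of -0.016. The 10 luminal prostate markers were all detected and summed to 4003 to 4009 CPM (counts relative to the TMM-scaled library size) in C4-2-ENZ and 3148 to 3150 CPM in C4-2-CON. They did not all go one way: ACP3 had 175.8 and 182.3 CPM in C4-2-ENZ libraries and 46.14 and 43.37 CPM in C4-2-CON libraries, while KLK3 had 487.4 and 477.3 CPM in C4-2-ENZ libraries and 662.9 and 691.6 CPM in C4-2-CON libraries. Markers of other cell types were low, at most 9.479 CPM summed per list and library, but some differed between the groups. The 4 basal markers summed to 2.012 to 2.195 CPM in C4-2-ENZ and 0.03564 to 0.0839 CPM in C4-2-CON, nearly all of it TP63 (1.949 and 2.147 CPM in C4-2-ENZ, 0.0 and 0.03564 CPM in C4-2-CON), with KRT5 at 0. The 5 leukocyte markers summed to 4.189 to 4.222 CPM in C4-2-ENZ and 1.746 to 1.762 CPM in C4-2-CON. The higher sum came from ITGAM, at 3.38 and 3.04 CPM in C4-2-ENZ and 0.3775 and 0.2495 CPM in C4-2-CON. CD68 went the other way, at 0.7259 and 1.11 CPM in C4-2-ENZ and 1.3 and 1.319 CPM in C4-2-CON. PTPRC was not higher in C4-2-ENZ (0.08296 and 0.04825 CPM, against 0.0839 and 0.1069 CPM in C4-2-CON), and CD3E was at 0. The 6 fibroblast markers summed to 7.165 to 7.736 CPM in C4-2-ENZ and 7.509 to 9.479 CPM in C4-2-CON, with COL1A2 at 0, and the 3 endothelial markers to 2.75 to 3.09 CPM in C4-2-ENZ and 4.241 to 4.656 CPM in C4-2-CON. The part of these markers in the results was not tested.

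All 8 genes passed the filter on low counts and all 8 were called higher in C4-2-ENZ cells, beside 33.0% of all genes tested and 42.3% of the 13942 protein-coding genes tested. Their median log2 fold change was 0.72, against -0.016 over all genes tested, and it ranged from 0.15 for NCOA1 to 1.60 for NCOA2. Both C4-2-ENZ libraries lay above both C4-2-CON libraries for each of the 8, a pattern seen in 40.4% of genes tested. NCOA2 and NCOA3 were at least 2-fold higher, which held for 7.58% of genes tested, while 10.1% were at least 2-fold lower. The 8 genes together took 1371 and 1396 CPM in the C4-2-ENZ libraries and 868.6 and 831.4 CPM in the C4-2-CON libraries. Each had at least 1090 counts in every library, so counting error was small. The largest difference between 2 replicates of a group was 0.19 on the log2 scale, for EP300 in C4-2-CON.

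**Figure D1:**
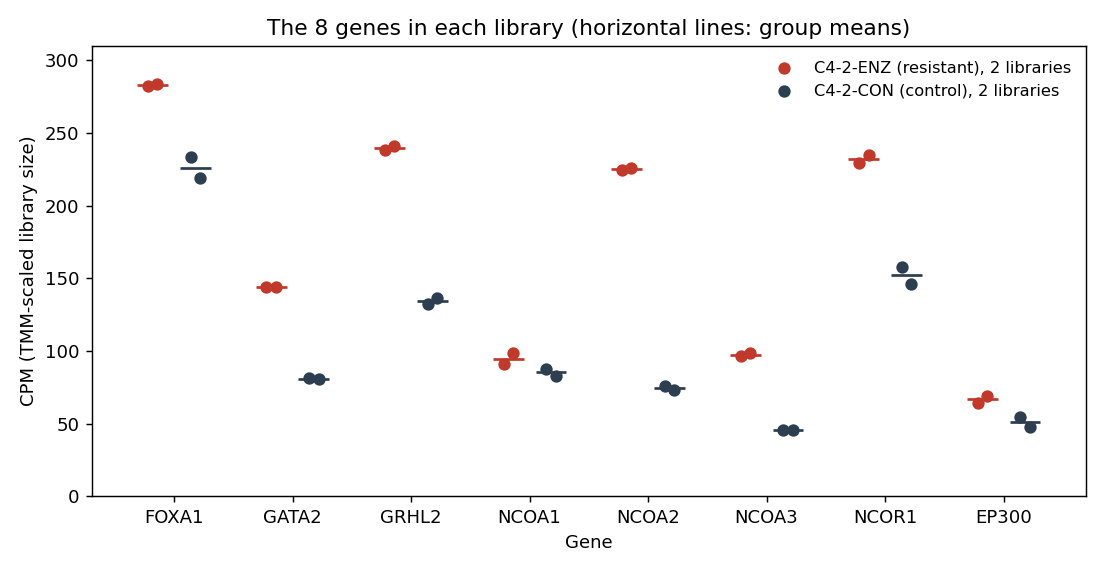
Expression of the 8 genes in CPM (y axis, from 0) in each library, with C4-2-ENZ in red and C4-2-CON in dark blue. Points are single libraries and horizontal lines are means of 2. The groups do not overlap for any gene, with NCOA2 the widest apart (225.2 against 74.36 CPM) and NCOA1 the closest (94.78 against 85.39 CPM).

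The DNA-binding factors FOXA1, GATA2 and GRHL2 were all higher in resistant cells. FOXA1, the forkhead pioneer factor on chromosome 14 (37589984 to 37596059, minus strand, GRCh38), had 282.3 and 283.9 CPM in C4-2-ENZ libraries and 233.5 and 219.0 CPM in C4-2-CON libraries. The groups were separate, but the step was small: 1.25-fold, or 0.32 in log2 (SE 0.041, edgeR adjusted p = 2.41e-05). With total count scaling the value was 0.51. GATA2, a zinc finger pioneer factor on chromosome 3 (128479427 to 128493185, minus strand), had 144.0 and 143.9 CPM in C4-2-ENZ libraries and 81.38 and 80.4 CPM in C4-2-CON libraries. Replicates of GATA2 nearly coincided within each group, and resistant cells stood 1.78-fold higher (log2 fold change 0.83, SE 0.041, edgeR adjusted p = 7.26e-09). GRHL2, on chromosome 8 (101492432 to 101669726, plus strand), had 238.6 and 241.4 CPM in C4-2-ENZ libraries and 132.2 and 136.3 CPM in C4-2-CON libraries. Its rise of 1.79-fold was close to that of GATA2 in size (log2 fold change 0.84, SE 0.039, edgeR adjusted p = 4.4e-09). GATA2 and GRHL2 lay above 87.6% and 87.8% of protein-coding genes in fold change, and FOXA1 above 64.9%.

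The p160 coactivators NCOA1, NCOA2 and NCOA3 moved by unequal amounts. NCOA2, on chromosome 8 (70109762 to 70403805, minus strand), had 224.7 and 225.8 CPM in C4-2-ENZ libraries and 75.84 and 72.88 CPM in C4-2-CON libraries. This was 3.03-fold higher in resistant cells (log2 fold change 1.60, SE 0.042, edgeR adjusted p = 5.28e-11), above 96.5% of protein-coding genes. NCOA3, whose gene on chromosome 20 (47501902 to 47656877, plus strand) is known for amplification in breast cancer, had 96.21 and 98.58 CPM in C4-2-ENZ libraries and 45.72 and 45.61 CPM in C4-2-CON libraries. It was 2.13-fold higher in resistant cells (log2 fold change 1.09, SE 0.043, edgeR adjusted p = 1.18e-09). NCOA1, on chromosome 2 (24491914 to 24770702, plus strand), had 90.86 and 98.7 CPM in C4-2-ENZ libraries and 87.72 and 83.07 CPM in C4-2-CON libraries. The gap between the lowest resistant and the highest control library of NCOA1 was 0.051 on the log2 scale, less than the 0.119 between its resistant replicates. The difference of 0.15 in log2 (SE 0.052) was called at an edgeR adjusted p of 0.0238. That call ended without C4-2-ENZ replicate 2 (0.11, edgeR adjusted p = 0.25), with a filter of 1 CPM (0.10, edgeR adjusted p = 0.0907) and after a correction for transcript length and GC content (0.063, edgeR adjusted p = 0.189). Total count scaling gave 0.34 and no count filter 0.245.

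**Figure D2:**
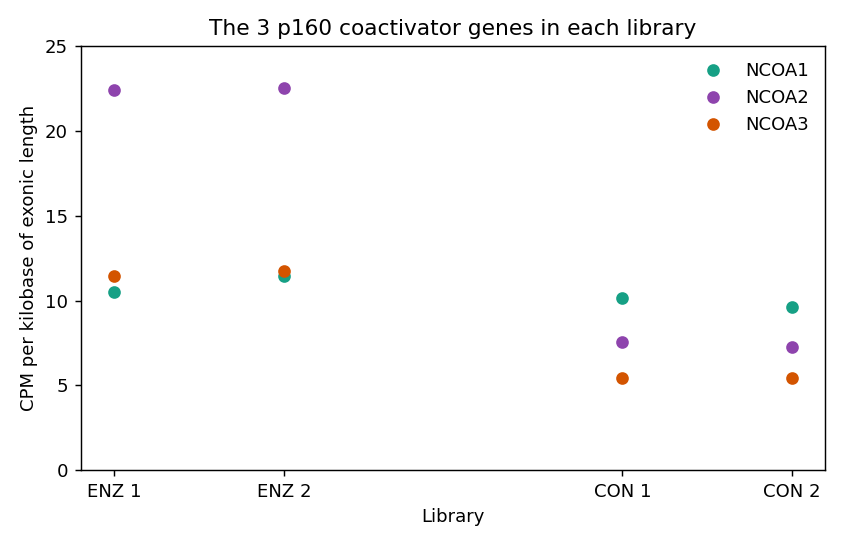
Levels of the p160 coactivator genes in CPM per kilobase of exonic length (y axis, from 0) in the 2 C4-2-ENZ libraries (left) and the 2 C4-2-CON libraries (right). NCOA2 is the highest of the family in C4-2-ENZ (22.41 and 22.52), and NCOA1 is the highest in C4-2-CON (10.16 and 9.622).

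The acetyltransferase and the corepressor rose less than NCOA2 and NCOA3. EP300, on chromosome 22 (41091786 to 41180079, plus strand), had 64.12 and 69.34 CPM in C4-2-ENZ libraries and 54.41 and 47.68 CPM in C4-2-CON libraries. Its groups did not overlap, with a rise of 1.31-fold (log2 fold change 0.39, SE 0.061, edgeR adjusted p = 0.000154). NCOR1, on chromosome 17 (16029157 to 16218185, minus strand), had 229.7 and 234.9 CPM in C4-2-ENZ libraries and 157.8 and 146.4 CPM in C4-2-CON libraries. It was 1.53-fold higher in resistant cells (log2 fold change 0.61, SE 0.044, edgeR adjusted p = 1.91e-07), so the single corepressor of the 8 moved in the same direction as the coactivators.

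The 8 genes differ in transcript length and base composition. Exonic length ran from 3982 bases for FOXA1 to 15404 bases for NCOR1, and transcript GC content from 44.1% for NCOA3 to 62.6% for GATA2. When a smooth trend of each library on exonic length and GC was removed, 6 of the 8 were called higher. Over all genes, 6613 of the 20122 tested with this correction were called higher. The 8 genes then had a median log2 fold change of 0.41, against 0.014 over all genes. EP300 was the other gene besides NCOA1 to lose its call (0.033, edgeR adjusted p = 0.549). GATA2 and NCOR1 were called with smaller values, 0.51 and 0.31. NCOA2 kept 1.38, NCOA3 1.02, GRHL2 0.67 and FOXA1 0.23, all called.

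**Figure D3:**
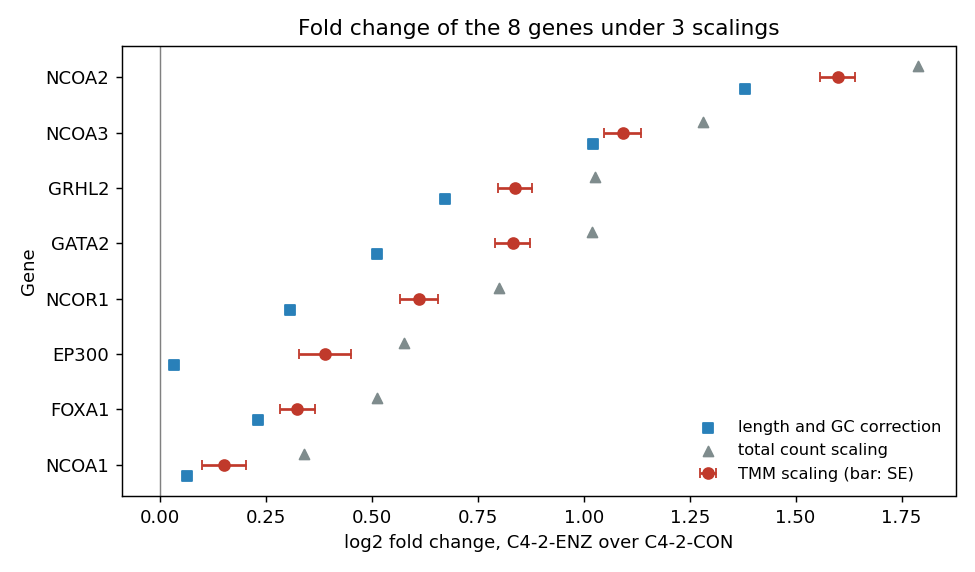
Log2 fold change of C4-2-ENZ over C4-2-CON (x axis) for the 8 genes in order of size. Circles are values with TMM scaling and bars are their SE, squares are values with the length and GC correction, and triangles are values with total count scaling. NCOA2 and NCOA3 stay above 1 under all 3 scalings, while EP300 (0.033) and NCOA1 (0.063) come near 0 with the correction.

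Levels of different genes were compared per kilobase of merged exonic length, which counts exons of all annotated transcripts and so understates a gene that uses few of them. In both C4-2-ENZ libraries the order was FOXA1 (70.9 and 71.3 CPM per kilobase), GRHL2 (39.38 and 39.83), GATA2 (32.29 and 32.27), NCOA2 (22.41 and 22.52), NCOR1 (14.91 and 15.25), NCOA3 (11.45 and 11.73), NCOA1 (10.52 and 11.43) and EP300 (5.13 and 5.547). NCOA3 and NCOA1 lay closest, and NCOA1 in replicate 2 (11.43) came near NCOA3 in replicate 1 (11.45). In the C4-2-CON libraries FOXA1 (58.64 and 55.0), GRHL2 (21.82 and 22.49) and GATA2 (18.25 and 18.03) again led. NCOR1 (10.24 and 9.506) and NCOA1 (10.16 and 9.622) followed with overlapping values, then NCOA2 (7.565 and 7.269), NCOA3 (5.442 and 5.429) and EP300 (4.353 and 3.815). NCOA2 and NCOA1 both changed place between the groups. NCOA2 stood above NCOR1 and NCOA1 in resistant libraries and below both in control libraries, and NCOA1 stood below NCOA3 in resistant libraries and above it in control libraries.

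Ratios within a library, in which library scaling cancels, were taken from the same CPM values and add no separate evidence on the p160 family. The CPM ratio of NCOA2 to NCOA1 was 2.473 and 2.288 in C4-2-ENZ libraries and 0.8647 and 0.8773 in C4-2-CON libraries, a log2 difference of 1.45 between the group means. For NCOA3 to NCOA1 the ratio was 1.059 and 0.9988 in C4-2-ENZ libraries and 0.5213 and 0.5491 in C4-2-CON libraries. Per kilobase it was 1.088 and 1.026 in C4-2-ENZ libraries, so the order of these genes in C4-2-ENZ replicate 2 depended on the length scale. NCOA2 to NCOA3 gave 2.336 and 2.291 in C4-2-ENZ libraries and 1.659 and 1.598 in C4-2-CON libraries. All 3 ratios were higher in both resistant libraries than in both control libraries. EP300 to its paralog CREBBP ran the other way, at 1.34 and 1.384 in C4-2-ENZ libraries and 1.634 and 1.495 in C4-2-CON libraries. These ratios are descriptions, as 2 libraries against 2 cannot reach a p below 0.05 in an exact permutation test.

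Paralogs of the pioneer factors were mostly near 0. FOXA2 had 2 and 1 counts in C4-2-ENZ and none in C4-2-CON libraries, and FOXA3 had none in C4-2-ENZ and 0 and 1 in C4-2-CON libraries. GATA3 and GATA4 reached at most 1 count in any library, GATA5 at most 5 and GATA1 at most 8. GATA6 had 4.687 and 4.415 CPM in C4-2-ENZ libraries and 3.859 and 2.53 CPM in C4-2-CON libraries (log2 fold change 0.53, SE 0.171, edgeR adjusted p = 0.0174), a call that ended without C4-2-CON replicate 2 (0.25, edgeR adjusted p = 0.195), in DESeq2 (0.53, DESeq2 adjusted p = 0.0625) and with the length and GC correction (0.34, edgeR adjusted p = 0.0966). GRHL1 differed by -0.016 in log2 (SE 0.062, edgeR adjusted p = 0.835), whose sign turned under total count scaling (0.17, called), without a count filter (0.080) and without C4-2-CON replicate 1 (0.049). With the length and GC correction GRHL1 was called lower (-0.17, edgeR adjusted p = 0.0105). GRHL3 stayed under 1 CPM, at 0.4563 and 0.4584 in C4-2-ENZ and 0.6712 and 0.392 in C4-2-CON libraries.

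Of 18 pioneer and partner transcription factors listed beside the 8 genes, 12 passed the filter, and 7 were called higher and 0 lower (median log2 value 0.29), beside 33.0% higher and 31.7% lower of all genes tested and 42.3% and 31.4% of protein-coding genes. The same shares are the background only of those list counts below that rest on TMM scaling. Under total count scaling, 8615 of all 20325 genes tested were called higher and 4761 lower. After the length and GC trend was removed, 6613 of 20122 genes were called higher and 6302 lower. None of the 12 factors was lower at an unadjusted p below 0.05 in edgeR (0) or called lower in DESeq2 (0). For these factors the correction gave 4 higher and 3 lower, and the median was -0.055. SOX9, a factor of prostate budding, rose 2.73-fold to 16.45 and 16.36 CPM in C4-2-ENZ libraries, against 6.964 and 5.167 CPM in C4-2-CON libraries (edgeR adjusted p = 1.71e-07). FOXP1, a forkhead repressor, rose 1.26-fold, but its log2 fold change of 0.33 turned to -0.010 (not called) with the correction.

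Among 24 other coactivators, all of which passed the filter, 16 were called higher and 2 lower (median log2 value 0.20), against a background of 42.3% higher and 31.4% lower among protein-coding genes. With the correction the counts were 12 higher and 5 lower, and the median 0.063. CREBBP, the acetyltransferase closest to EP300, had 47.84 and 50.08 CPM in C4-2-ENZ libraries and 33.31 and 31.89 CPM in C4-2-CON libraries (log2 fold change 0.59, SE 0.053, edgeR adjusted p = 1.26e-06, and 0.14 with the correction). RNF6, a ubiquitin ligase that acts on the androgen receptor, rose 1.48-fold and KAT2B, an acetyltransferase also called PCAF, rose 1.46-fold. The 2 that fell were PRMT1, an arginine methyltransferase, with a log2 fold change of -0.40, and KAT2A, the acetyltransferase paralog of KAT2B, with -0.34. KAT2A and KAT2B thus moved in opposite directions, also with the correction (-0.50 and 0.61). Total count scaling gave smaller falls, -0.22 for PRMT1 and -0.15 for KAT2A.

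Of 14 other corepressors, all tested, 9 were called higher and 2 lower (median log2 value 0.48), beside 42.3% and 31.4% of protein-coding genes. With the correction there were 7 each way and the median was 0.059. NRIP1 (RIP140), a corepressor of nuclear receptors, had the largest rise of the list, to 238.5 and 238.4 CPM in C4-2-ENZ libraries, against 101.3 and 96.08 CPM in C4-2-CON libraries (2.42-fold, edgeR adjusted p = 2.88e-10). TLE1, a Groucho-family corepressor, rose 1.73-fold. The partners of NCOR1 in its deacetylase complex did not move together. CORO2A, TBL1X and TBL1XR1 rose 1.86-fold, 1.499-fold and 1.43-fold, with the log2 value of TBL1X at 0.58, or 0.28 with the correction. GPS2, a small subunit of that complex, was low and fell, with 2.655 and 1.954 CPM in C4-2-ENZ libraries and 4.698 and 5.096 CPM in C4-2-CON libraries (log2 fold change -1.08, SE 0.161, edgeR adjusted p = 9.76e-05). HDAC3, its deacetylase, was not called (-0.086, edgeR adjusted p = 0.0899). The sign of HDAC3 turned under total count scaling (0.10) and without a count filter (0.010), and it was called lower with the correction (-0.19). HDAC2 fell, with a log2 fold change of -0.46, or -0.27 with total count scaling.

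Chaperones that fold the receptor and hold it ready for hormone were called in both directions. Of 10 tested, 3 were called higher and 5 lower (median log2 value -0.048), beside 42.3% and 31.4% of protein-coding genes. Total count scaling turned this to 6 higher and 3 lower, with a median of 0.14, and the length and GC correction to 3 higher and 7 lower, with a median of -0.14. HSPA8, the constitutive HSP70, had 2299 and 2290 CPM in C4-2-ENZ libraries and 3695 and 3618 CPM in C4-2-CON libraries (log2 fold change -0.67, edgeR adjusted p = 1.95e-09). PTGES3, the cochaperone p23, had a log2 fold change of -0.69 and FKBP5, an androgen-induced immunophilin, -0.50. DNAJA1, an HSP40, the kinase-directed cochaperone CDC37 and HSP90AB1, the constitutive HSP90, rose 1.27-fold, 1.25-fold and 1.24-fold. The correction moved DNAJA1 from 0.35 to 0.66, CDC37 from 0.32 to 0.17 and PTGES3 from -0.69 to -0.42 in log2, and total count scaling gave 0.54 for DNAJA1, 0.51 for CDC37, 0.50 for HSP90AB1 and -0.31 for FKBP5.

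Of 11 epithelial genes linked to GRHL2, all tested, 6 were called higher and 1 lower (median log2 value 0.34, or 0.23 with the correction). The background was 33.0% higher and 31.7% lower of all genes tested and 42.3% and 31.4% of protein-coding genes. With the correction 8 were called higher and 2 lower, beside 6613 higher and 6302 lower of 20122 genes. OVOL1, an epithelial zinc finger repressor, rose 1.94-fold, and the tight junction claudins CLDN4 and CLDN3 rose 1.83-fold and 1.81-fold. CLDN4 had 333.0 and 323.0 CPM in C4-2-ENZ libraries and 167.8 and 190.4 CPM in C4-2-CON libraries. ESRP2, an epithelial splicing regulator, was the 1 called lower with TMM scaling (-0.25, edgeR adjusted p = 0.00112). That call ended under total count scaling (-0.062, edgeR adjusted p = 0.307) and without a count filter (-0.15, edgeR adjusted p = 0.0852). Of the pair of ZEB repressors, which oppose the epithelial state, ZEB2 had no count in any library. ZEB1, described after its values were seen, had 41 and 31 counts in C4-2-ENZ libraries and 6 and 4 in C4-2-CON libraries, under 1 CPM in each (log2 fold change 2.04, SE 0.378, edgeR adjusted p = 0.00054).

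**Figure D4:**
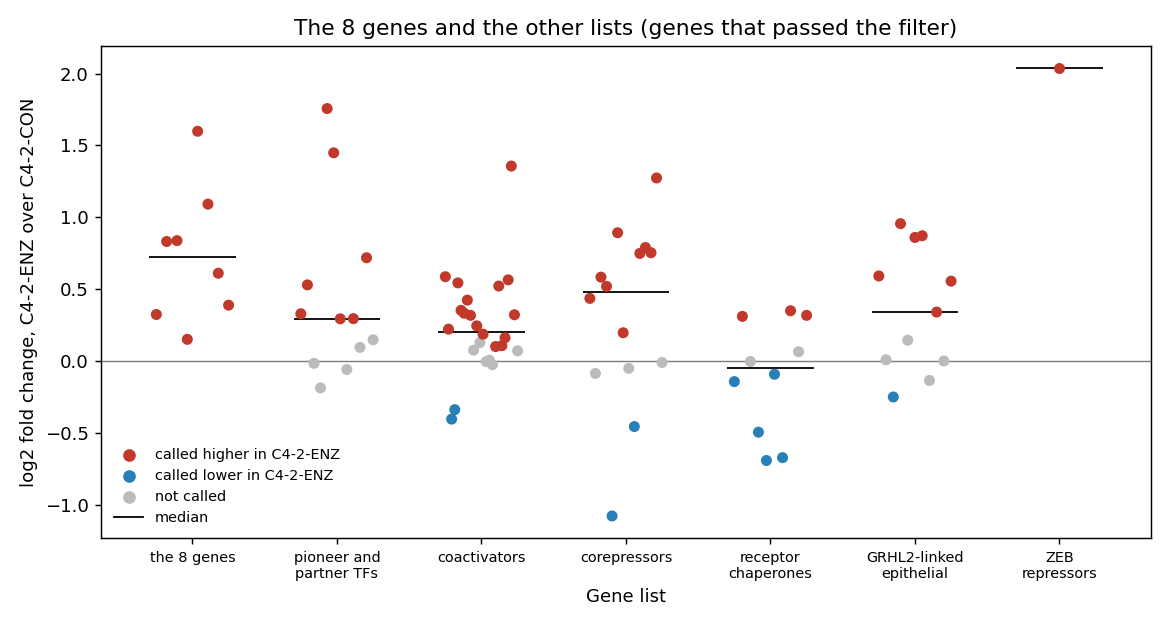
Log2 fold change of C4-2-ENZ over C4-2-CON (y axis) for the 8 genes and for the genes of each other list that passed the filter. Each point is a gene, red where called higher, blue where called lower and grey where not called, and black lines are medians. The 8 genes lie between 0.15 and 1.60, while coactivators, corepressors, chaperones and epithelial genes have points on both sides of 0. Pioneer and partner factors also have points on both sides of 0, with none called lower.

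Reads of neighbouring or copied genes could reach the counts of the 8, since no source used here gives the strand setting of the counting. Between 0.0% and 3.3% of exonic bases of the 8 genes were shared with an exon of another annotated gene, the most in NCOR1, where 321 bases are shared with PIGL. Of 26 annotated genes that overlap one of the 8 or carry its name, 13 had at most 10 counts in every library. The NCOR1 pseudogenes NCOR1P1, NCOR1P3 and NCOR1P4 had no count, and NCOR1P2 had at most 7. TTC6, which runs opposite FOXA1, had 76.65 and 78.26 CPM in C4-2-ENZ libraries and 145.4 and 138.2 CPM in C4-2-CON libraries, a fall (log2 fold change -0.87, edgeR adjusted p = 8.95e-09) beside the rise of FOXA1. GATA2-AS1, antisense to GATA2, was higher like its partner, at 41.35 and 41.59 CPM in C4-2-ENZ libraries and 27.23 and 30.5 CPM in C4-2-CON libraries (log2 fold change 0.52, edgeR adjusted p = 1.33e-05). AP001207.3, antisense to GRHL2, was higher too (1.87, edgeR adjusted p = 1.9e-07) at 7.072 and 6.755 CPM in C4-2-ENZ libraries and 2.014 and 1.782 CPM in C4-2-CON libraries. TTC19, whose span overlaps that of NCOR1 without a shared exonic base, rose (0.54, edgeR adjusted p = 3.08e-07). PIGL was called lower (-0.36, edgeR adjusted p = 0.00366), at 11.45 and 9.65 CPM in C4-2-ENZ libraries and 14.05 and 13.22 CPM in C4-2-CON libraries. That call ended under total count scaling (-0.17, edgeR adjusted p = 0.116). EP300-AS1 was not called (-0.17, edgeR adjusted p = 0.373), and its sign turned under total count scaling (0.021) and with the correction (0.23).

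For FOXA1, GATA2, EP300, NCOR1 and the p160 genes, the protein-coding gene with the most similar pattern was taken as that with the smallest Euclidean distance between mean-centred log2 CPM values over the 4 libraries, among genes within 1 log2 unit in mean level. NCOA2 had few close neighbours, 6 of 2911 genes within a distance of 0.1, and WDR7 was nearest (0.014), with 161.9 and 164.1 CPM in C4-2-ENZ libraries and 55.37 and 52.85 CPM in C4-2-CON libraries. NCOA1 had 168 of 3962 genes within that distance and FOXA1 89 of 1316. ATXN1 was nearest to NCOA1 (0.017). The nearest genes were EMB for FOXA1 (0.021), GIGYF2 for GATA2 (0.008), CUX1 for NCOA3 (0.012), DIP2B for NCOR1 (0.016) and ARID1A for EP300 (0.011). None of these was itself one of the 8.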

How the data were processed

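For each of the 4 libraries the deposited file holds raw read counts by gene, not normalized. Per the submitters' processing notes, reads were aligned with STAR 2.5.2b and counted with HTSeq on GRCh38 (hg38). No source used here gives the HTSeq version, counting mode, strand setting or annotation release. The 5 rows that name no gene entered neither library sizes nor tests.

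Of 60483 identifiers, 56753 matched GENCODE 29 without their version. Counts were filtered with filterByExpr (minimum count 10), scaled by TMM and fitted in edgeR 4.0.16 (R 4.3.3), by its quasi-likelihood method, with group as the only term, 2 residual degrees of freedom and Benjamini-Hochberg adjustment over all 20325 genes tested. Genes were called at an adjusted p below 0.05. The SE is the size of the log2 fold change divided by the square root of F. CPM uses the TMM-scaled library size. The labels do not call the replicates separate cultures. The p-values therefore rest on a spread among 4 libraries that may be purely technical. The procedure was run on simulated counts with few changed genes, balanced in direction. They held no length, GC or makeup difference between the groups. That setting cannot check the scaling or the calls in these data, where most genes were called.

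Alternatives were DESeq2 1.42.0 and its size factors, total count scaling, other count filters, a replicate block, each library left out, and a length and GC correction (smooth terms of mgcv 1.9.3 on exonic length from GENCODE 29 and on GC content of its transcripts, used as offsets). The 8 genes and all lists were chosen with earlier results of these data known. Named beside the 8 were their paralogs and NCOR1 partners, up to 3 largest rises and falls per list among called genes averaging at least 2 in log2 CPM, overlapping or copied genes, and the nearest gene in pattern. Some genes that this rule selects are not reported here.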

Additional observations from a re-analysis of the deposited data

How the results depend on the processing

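Among all genes, 5568 of 20325 were called higher with DESeq2, 6762 of 20325 with its size factors and 8615 of 20325 with total counts. The share was 7560 of 40992 with no count filter, 5875 of 15667 with a filter of 1 CPM and 6613 of 20122 with the length and GC correction. The count of 8 genes called higher was 8 with DESeq2, with its size factors, with total counts, with no count filter and with the replicate block. It was 7 with a filter of 1 CPM and 6 with the length and GC correction. NCOA1 and EP300 were the genes that lost a call, NCOA1 with the filter of 1 CPM (0.103) and the correction (0.063) and EP300 with the correction (0.033). Without 1 library, log2 fold changes of NCOA1 ran from 0.106 to 0.22. The replicate numbers are not said to pair libraries (correlation of same-numbered deviations -0.023), and the replicate block gave 6647 genes higher and 6444 lower, against 6705 and 6443. In lists, the correction gave 4 higher and 3 lower pioneer and partner factors and 12 higher and 5 lower coactivators. It gave 7 higher and 7 lower corepressors, 3 higher and 7 lower chaperones, and 8 higher and 2 lower epithelial genes. Total count scaling gave 6 higher and 3 lower chaperones and 0 lower epithelial genes, where DESeq2 gave 1. No count filter gave 3 lower chaperones and 0 lower epithelial genes, and the replicate block 2 lower epithelial genes. The filter of 1 CPM gave 4 lower corepressors, 2 lower epithelial genes and 0 higher ZEB genes. Over all genes, 5710 of 40992 were called lower with no count filter and 5892 of 15667 with the filter of 1 CPM. The number lower was 4836 of 20325 with DESeq2, 4761 of 20325 with total counts and 6302 of 20122 with the correction. List counts with 1 library left out are not given, as such a fit leaves 1 library in a group. Signs turned for GRHL1 (0.172 with total counts, 0.080 without a filter, and -0.072 to 0.049 with 1 library left out), GRHL3 (0.0002 with total counts, and -0.542 to 0.223 with 1 library left out) and HDAC3 (0.103 with total counts, 0.010 without a filter). They also turned with the correction for FOXP1 (-0.010), ATXN1 (-0.129), ARID1A (-0.074), AP001207.1 (0.368), AL034418.1 (0.437), AC002553.1 (0.186) and EP300-AS1 (0.226, and 0.021 with total counts). Over all refits of other named genes, 468 kept direction and call, 5 gained a call, 12 lost it and 15 turned in sign. Apart from settings that change the genes or libraries tested, the cause was not tested. Total gene counts were lower in C4-2-CON, which limits low genes such as GATA6 and ZEB1. The 8 genes each had at least 1090 counts in every library. The part of depth and library makeup in their values was not tested.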

Other observations

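The chromosomal surroundings of the 8 genes were looked at after the values above were seen, with protein-coding genes within 5 Mb of each side. Around GATA2, 41 of 61 tested genes were called higher (67.2%, median log2 fold change 0.35), against 41.7% of all 793 tested on chromosome 3. Around NCOA2, 9 of 33 were called higher (27.3%, median -0.18), and around GRHL2, on the same chromosome, 16 of 33 (48.5%, median 0.185), against 43.6% over chromosome 8. FOXA1 stood among genes that were mostly not higher, 7 of 28 (median -0.39), against 37.0% over chromosome 14. The share higher was 45.0% around NCOA1 and 46.0% around NCOR1, against 38.3% over chromosome 2 and 43.3% over chromosome 17. It was 46.1% around NCOA3 and 45.9% around EP300, against 49.9% over chromosome 20 and 49.4% over chromosome 22. Neighbouring genes are not independent replicates, and no test was made of these shares.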
